A study of Rattus norvegicus with 77 samples.

Results

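The kinesins are motor proteins that walk along microtubules, and the probe sets of their genes were described here in mRNA from rat cauda epididymal sperm. The members were the probe sets of the array that carry a single gene symbol in the platform annotation, beginning with Kif or Klc followed by a digit. This rule used names only and found 33 genes, each with 1 probe set, among 29214 probe sets in all, that is 33 of the 14506 gene symbols carried singly. RefSeq lists 44 protein-coding rat genes with such names. The 11 others, Kif7, Kif9, Kif14, Kif17, Kif18a, Kif19b, Kif21a, Kif24, Kif26a, Kif27l1 and Kif28p, were not analysed here, and motors outside the name rule, such as the Kifc genes, are not members.

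Fischer 344 rats drank water with 0.33% 2,5-hexanedione (HD), a Sertoli cell toxicant, or water alone for 3 months. The HD (n = 19) and water (n = 20) groups were sampled then, and the HD-recovery (n = 20) and water-recovery (n = 18) groups after 3 further months without exposure. Each rat gave 1 Affymetrix Rat Gene 1.0 ST array, and values are the deposited normalized log2 intensities. A value covers every transcript of a sperm preparation, so fewer cells of a type and less RNA per cell cannot be told apart.

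Kinesin heavy chains hold an ATP-driven motor domain, and most carry cargo toward the plus end of the microtubule. Kinesin light chains (Klc) attach cargo to the conventional motor, kinesin-1. Kinesin-2 motors carry building material into cilia and flagella, kinesin-13 proteins take microtubules apart at their ends, and several other families build and divide the spindle. Elongating spermatids rely on microtubule transport along the manchette and into the growing tail, and mature sperm are largely transcriptionally silent. HD is known to cross-link tubulin in Sertoli cells and to disturb transport along their microtubules.

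Kif6, a kinesin-9 motor known in the mouse for its role in ependymal cilia, was the only member that passed the test between exposed and control rats with all arrays at equal weight. Its level was lower in arrays labelled HD, and it differed by less than its error between the recovery groups. Among the 32 other members its level over rats of the water group was most like that of Kif2c, the kinesin-13 microtubule depolymerase also called MCAK. Over all probe sets 1.9% had a higher correlation with Kif6 in that group. The stretches around the annotated starts of Kif6 and Kif2c are shown, with 250 bases before and 50 from the start onward. They are from the RefSeq annotation of build GRCr8, both on the minus strand and written 5′ to 3′, with motif matches in capitals.
Kif6, chr9:18870740-18871039: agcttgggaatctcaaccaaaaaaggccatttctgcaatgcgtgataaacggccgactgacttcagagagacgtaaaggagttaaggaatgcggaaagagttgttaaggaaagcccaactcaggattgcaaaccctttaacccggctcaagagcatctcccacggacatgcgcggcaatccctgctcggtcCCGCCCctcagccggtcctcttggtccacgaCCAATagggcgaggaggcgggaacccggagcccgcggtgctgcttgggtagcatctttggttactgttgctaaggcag
Kif2c, chr5:135899163-135899462, the more upstream of 2 starts listed: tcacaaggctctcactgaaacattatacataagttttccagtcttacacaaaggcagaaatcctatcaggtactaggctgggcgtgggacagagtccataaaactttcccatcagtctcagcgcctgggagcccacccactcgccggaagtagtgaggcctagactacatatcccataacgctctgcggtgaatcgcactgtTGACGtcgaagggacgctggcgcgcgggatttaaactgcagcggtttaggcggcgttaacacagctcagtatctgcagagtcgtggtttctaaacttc
The capitals in Kif6 mark a CCAAT box (CCAAT) at position -28 and a GC box (GGGCGG), read on the opposite strand, at -59. Those in Kif2c mark the half-site TGACG of the cAMP response element at -48. Both strands were searched for these letters and for TATAAA and TGACGTCA, the full element that contains the half-site. Among 27457 promoter stretches of this length, 37.8% held CCAAT, 34.9% GGGCGG and 22.0% TGACG, and among 28 matched member promoters 12, 23 and 12 held them. The 2 stretches shared none of the matched motifs. A match is a description of the letters and not a binding site.

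Median correlations of the arrays with their own group were 0.83 to 0.977 for HD, 0.942 to 0.974 for water, 0.946 to 0.977 for HD-recovery and 0.932 to 0.978 for water-recovery. By the rule of 3 scaled median absolute deviations below the group median, 4 HD arrays (replicates 3, 4, 5 and 14), 1 water array (20), 3 HD-recovery arrays (2, 9 and 16) and 2 water-recovery arrays (12 and 15) stood apart. A single component carried 41.9% of the variance within groups. The sperm transcripts Prm1, Odf1 and Smcp were bright on every array, at 12.15 to 13.69, 13.43 to 14.21 and 13.46 to 14.24. The other listed sperm markers had lower medians. Akap4 ranged over 8.02 to 11.37, Prm2 over 8.22 to 10.33, Tnp1 over 8.32 to 12.05, Gapdhs over 8.87 to 11.78 and Tnp2 over 9.82 to 12.24. The leukocyte transcript Cd74 ranged over 9.20 to 12.33 and beta-globin (Hbb) over 8.93 to 13.02. Both were the brightest of their lists by median, while the leukocyte marker Ms4a1 ranged over 5.31 to 6.42 and the erythroid marker Ahsp over 4.71 to 5.85.

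**Figure D1:**
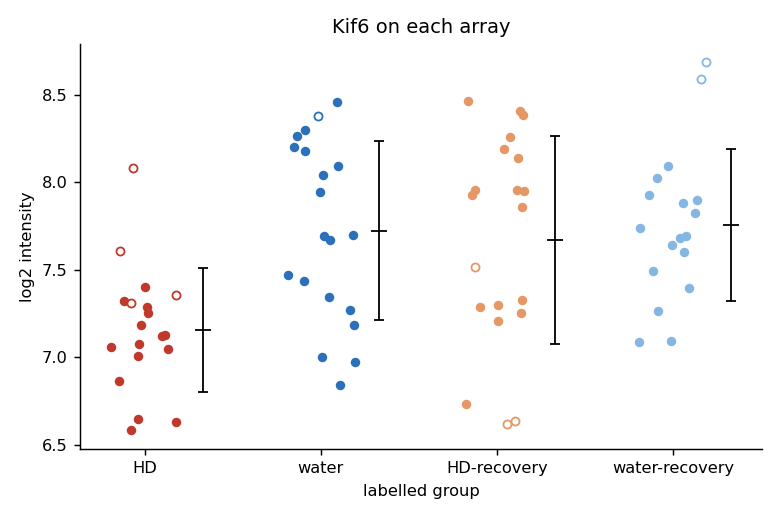
Log2 intensity of Kif6 plotted array by array in the 4 groups, with the mean and SD as bars beside the points and open points for arrays that stand apart. The HD arrays centre on 7.16 and the other 3 groups on 7.67 to 7.76, with overlap between groups.

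Kif6 was measured by probe set 10926188. In HD rats its log2 level ran from 6.58 to 8.08 with a median of 7.13, against 6.84 to 8.46 with a median of 7.70 in water rats. In HD-recovery rats it ran from 6.62 to 8.47 with a median of 7.89, against 7.09 to 8.68 with a median of 7.71 in water-recovery rats. The HD group was thus the low one of the 4: 18 of its 19 arrays lay under the water median and 3 lay under every water array, while the ranges overlapped.

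The mean level of Kif6 was 7.16 ± 0.35 in HD rats (SD, n = 19) and 7.72 ± 0.51 in water rats (SD, n = 20). The log2 fold change, HD minus water, was -0.57 with an SE of 0.14 and a 95% interval of -0.84 to -0.29, that is 1.48-fold lower (limma, q = 0.0399 over all probe sets). This sign is opposite to the study's array direction for Kif6 and nearly all the genes it lists, including Ift81 and Dcn named further on. The study also ran quantitative PCR in other rats, comparing 3 months of HD with rats before exposure. There Ift81 was higher, and Dcn was lower without being marked as significant. The groups are named here as the labels name them. The values do not settle which is right, so every signed value between HD and water rests on the labels. Kif6 is also among the genes the study listed from these samples, so the call is not independent evidence. Across the array 138 of 29214 probe sets (0.472%) passed q < 0.05, of which 133 were lower (0.455%) and 5 higher (0.0171%). With the labels of the 2 groups turned round, 133 would be higher and 5 lower. Among the members 1 of 33 (3.03%) passed and 32 did not.

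The call of Kif6 lay close to the threshold. Leaving out each of the 39 arrays in turn gave log2 fold changes of -0.62 to -0.53 and q of 0.00669 to 0.0812, and the call was lost in 23 of the 39 fits. These were the fits without HD replicates 2, 7, 8, 9, 11, 12, 15, 16, 17, 18, 19 and 20 and those without water replicates 2, 3, 4, 6, 7, 9, 10, 13, 14, 19 and 20. The number of probe sets called over the whole array ran from 76 to 376 in the same fits. Centring the array medians also ended the call (-0.57, q = 0.0806).

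**Figure D2:**
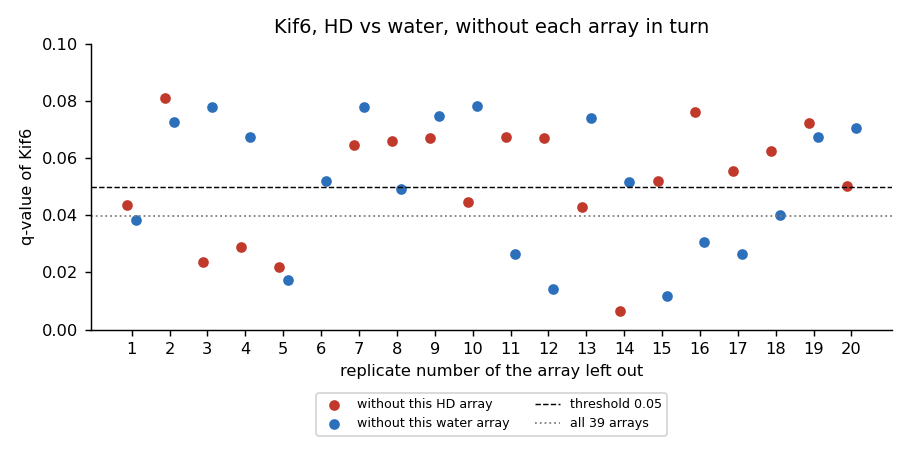
The q-value of Kif6, HD against water, after each HD or water array was left out in turn, with the threshold of 0.05 (dashed) and the value with every array (dotted). The values run from 0.00669 to 0.0812, and 23 of 39 lie above the threshold.

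After recovery the mean level of Kif6 was 7.67 ± 0.59 in HD-recovery rats (SD, n = 20) and 7.76 ± 0.43 in water-recovery rats (SD, n = 18). The log2 fold change was -0.09 with an SE of 0.16 and a 95% interval of -0.41 to 0.24 (limma, q = 1), and 9 of 20 HD-recovery arrays lay under the water-recovery median. No probe set of the array passed in this comparison, while 1318 (4.51%) had an unadjusted p under 0.05. The exposure effect itself differed between the sampling times by 0.48 with an SE of 0.22 (limma, interaction, unadjusted p = 0.0295, q = 1), which did not pass. HD-recovery rats were above HD rats by 0.51 with an SE of 0.15 (limma, q = 0.14), and water-recovery rats differed from water rats by 0.03 with an SE of 0.15 (limma, q = 0.916). Neither passed. Time after exposure, age and separate handling of the later rats cannot be told apart in these 2 comparisons.

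Markers of other cells moved in the same comparison as Kif6. Of 14 leukocyte markers all 14 had negative log2 fold changes in HD against water rats, with a median of -0.35 against 0.01 over all probe sets, and 1 fell at q < 0.05, Fcer1g, the gamma chain of Fc receptors (-0.68, SE 0.16, q = 0.0427). The log2 of their summed intensity ran from 11.38 to 12.93 (median 11.72) in HD rats and from 11.42 to 12.87 (median 12.42) in water rats. After recovery it ran from 11.35 to 13.42 (median 12.42) in HD-recovery rats and from 11.59 to 13.35 (median 12.47) in water-recovery rats. These medians thus had the HD group as the low one, as for Kif6.

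Each of 4 erythroid markers measured, of 6 listed, also had a negative log2 fold change (median -0.39), and 1 fell, Ahsp, the alpha-globin chaperone (-0.25, SE 0.06, q = 0.0274). Their log2 sum ran from 9.47 to 12.24 (median 10.62) in HD rats and from 10.17 to 12.38 (median 11.54) in water rats. After recovery it ran from 9.75 to 12.74 (median 11.74) in HD-recovery rats and from 10.28 to 13.15 (median 11.65) in water-recovery rats. This sum mainly follows Hbb, the brightest of the 4, with a median of 10.33 in HD and 11.34 in water rats. Hbb itself did not pass (limma, -0.85, SE 0.22, q = 0.0603). Of 5 fibroblast markers 1 fell, the matrix proteoglycan Dcn (limma, -1.09, SE 0.22, q = 0.00917). This is opposite in sign to the study's array value for Dcn. The study's quantitative PCR value for Dcn, from other rats, was also negative and not marked as significant. The log2 sum of the fibroblast markers ran from 9.69 to 10.83 in HD rats and from 10.18 to 12.01 in water rats. The other 4 fibroblast markers lay between -0.09 and 0.08, and the median of the list was -0.03. None of 8 epididymal and 6 Sertoli cell markers passed. The 8 epididymal log2 fold changes were all negative, with a median of -0.05, and the Sertoli cell ones were 4 positive and 2 negative. Of 8 sperm markers 1 fell, the tail fibre protein Odf1 (-0.22, SE 0.05, q = 0.0445). The list was split in sign, with a median of 0.13, and the 7 others did not pass. Of these Akap4 (0.78), Tnp1 (0.69), Gapdhs (0.43) and Prm2 (0.36) were positive, and Tnp2 (-0.41), Prm1 (-0.24) and Smcp (-0.10) negative. An unadjusted p under 0.05 (limma) was reached by all 8 sperm markers, 4 higher and 4 lower, against 8.3% of all probe sets. It was also reached by 12 leukocyte, 4 erythroid and 1 fibroblast markers, all lower, and by no epididymal or Sertoli cell marker.

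In the recovery groups no marker passed, with medians of -0.08 for leukocyte, -0.08 for erythroid and 0.22 for sperm markers. The methods describe a lysis step that removes somatic cells from the sperm pellet, and a purity check by microscopy and by the lack of ribosomal RNA peaks. The part of other cells in the lower Kif6 level was not tested.

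**Figure D3:**
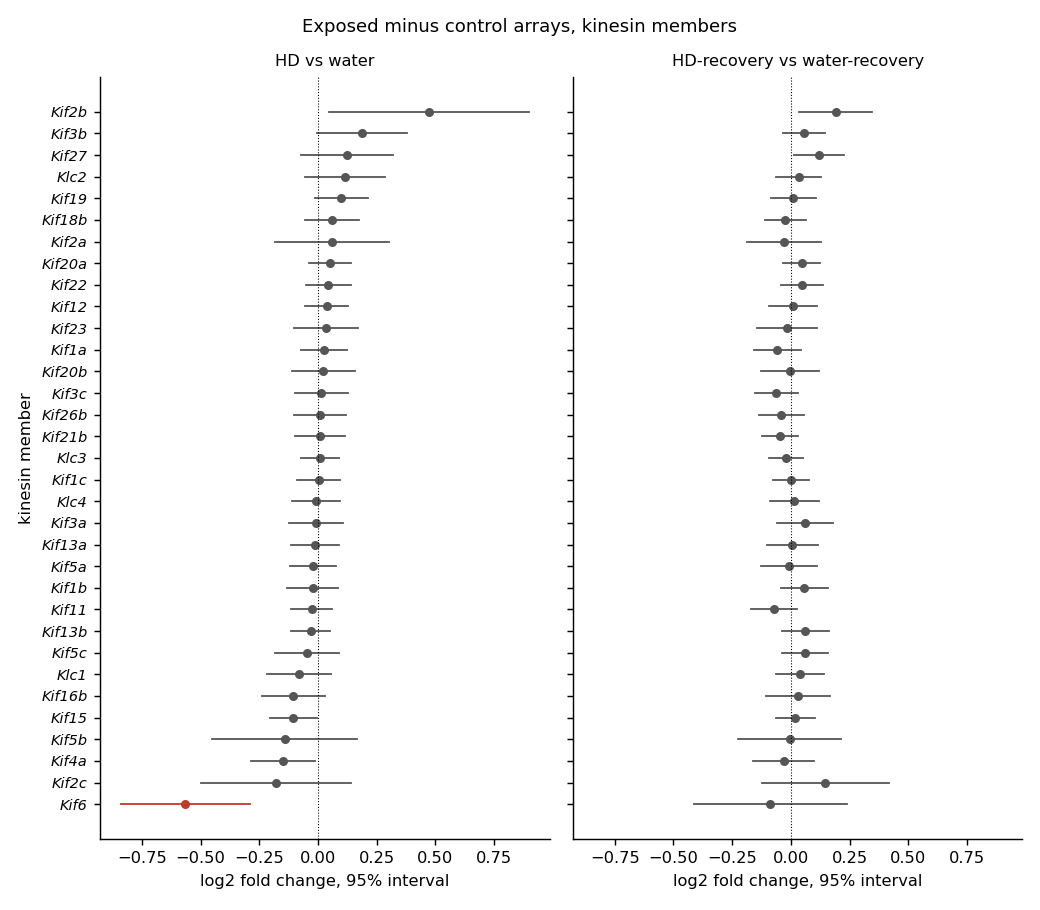
Log2 fold changes of the 33 members with 95% intervals, HD minus water on the left and HD-recovery minus water-recovery on the right, ordered by the left panel, with the member that passed q < 0.05 in red. Kif6 lies lowest on the left at -0.57 and at -0.09 on the right, and most other intervals cross 0.

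The family as a whole was centred near no change. In HD against water rats 18 of the 33 members had positive and 15 negative log2 fold changes, with a median of 0.01 for the members and 0.01 for all probe sets. An unadjusted p under 0.05 was seen for 4 members, Kif2b (higher) and Kif6, Kif4a and Kif15 (lower), against 8.3% of all probe sets (3.4% higher and 4.91% lower). In HD-recovery against water-recovery rats 19 were positive and 14 negative, with a median of 0.01 for the members and -0.01 for all probe sets. There 2 members had such a p, Kif2b and Kif27, both higher, against 2.86% of all probe sets higher and 1.65% lower, and none passed q < 0.05. In the interaction no member passed and 1 had such a p, Kif6, against 3.38% of all probe sets. In HD-recovery against HD rats 0 members passed, against 0.154% of all probe sets (0.127% higher and 0.0274% lower), and 5 had such a p, against 9.55%. In water-recovery against water rats 0 passed and 1 had such a p, Kif15, against 4.7%.

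Among motors tied to cilia and flagella, Kif3a and Kif3b form kinesin-2, which drives anterograde intraflagellar transport. Kif3b ranged over 7.16 to 9.02 (median 7.45) in HD rats and over 7.03 to 7.64 (median 7.39) in water rats. Its log2 fold change was 0.19 with an SE of 0.09 (limma, q = 0.611). Kif3a ranged over 5.65 to 6.70 (median 6.02) in HD rats and over 5.82 to 6.27 (median 6.00) in water rats, a log2 fold change of -0.01 with an SE of 0.06. Neither subunit nor Kif3c, a further kinesin-2 subunit, passed.

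Kif27, a kinesin-4 motor needed for motile cilia in the mouse, ranged over 6.52 to 8.24 (median 6.92) in HD rats and over 6.42 to 7.34 (median 6.81) in water rats (log2 fold change 0.12, SE 0.10). In HD-recovery rats it ranged over 6.51 to 7.12 (median 6.86), against 6.43 to 7.01 (median 6.71) in water-recovery rats. That log2 fold change was 0.12 with an SE of 0.05 (limma, unadjusted p = 0.0282, q = 1). Kif19, a kinesin-8 motor that limits cilium length in the mouse, ranged over 6.21 to 7.05 in HD rats and over 6.31 to 6.78 in water rats, and 6 of 19 HD arrays lay above every water array (log2 fold change 0.10, SE 0.06, q = 0.707).

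The cargo of kinesin-2 was read from a list of 22 intraflagellar transport genes, of which 16 were measured. Of these 1 fell in the rats labelled HD, again opposite in sign to the study, Ift81, whose protein binds tubulin within the transport train (-0.74, SE 0.17, q = 0.0274), and 15 did not pass. The median over the list was 0.04 against 0.01 over all probe sets. In the recovery groups Ift81 differed by -0.02 with an SE of 0.16. No gene passed among 30 of cytoplasmic dynein and dynactin, the motor that runs the other way (median 0.04), nor among 15 kinesin partners measured of 16 listed (median 0.02).

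The kinesin-1 heavy chains Kif5a, Kif5b and Kif5c all had negative log2 fold changes in HD rats, and none passed. Kif5b, the conventional motor of most cells, ranged over 6.21 to 8.73 (median 6.68) in HD rats and over 6.10 to 7.66 (median 7.04) in water rats (-0.14, SE 0.15, q = 0.956). A total of 15 of 19 HD arrays lay under the water median, while 2 lay above every water array. Kif5c, a form enriched in neurons, was at -0.05 with an SE of 0.07.

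The light chains held the steadiest member. Klc3, which in rat spermatids binds outer dense fibres and midpiece mitochondria, ranged over 6.78 to 7.22 in HD rats and over 6.74 to 7.14 in water rats, with HD-recovery rats at 6.72 to 7.18 and water-recovery rats at 6.87 to 7.10. Its log2 fold change was 0.01 with an SE of 0.04 and a 95% interval of -0.07 to 0.09. The SD of Klc3 within groups was 0.10, and only 0.709% of probe sets had a smaller one. Its mean over all arrays was 6.95, and whether this lay above background was not tested. Klc2 ranged over 6.62 to 8.25 (median 6.92) in HD rats and over 6.72 to 7.23 (median 6.91) in water rats (0.11, SE 0.08, q = 0.856).

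The 3 kinesin-13 members differed in sign. Kif2b ranged over 6.11 to 10.34 (median 6.79) in HD rats and over 6.11 to 7.41 (median 6.55) in water rats, and 16 of 19 HD arrays lay above the water median. Its log2 fold change of 0.47 with an SE of 0.21 was the highest among the members and did not pass (limma, q = 0.508). After recovery it ranged over 6.07 to 7.15 in HD-recovery rats and over 6.09 to 6.74 in water-recovery rats, and 7 of 20 HD-recovery arrays lay above every water-recovery array (0.19, SE 0.08, unadjusted p = 0.0179, q = 0.978). Kif2b was thus on the higher side at both times without passing at either.

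Kif2c ranged over 7.36 to 8.99 (median 7.95) in HD rats and over 7.26 to 9.10 (median 8.21) in water rats (-0.18, SE 0.16, q = 0.918). After recovery it was at 0.15 with an SE of 0.13. Kif2a ranged over 5.11 to 7.40 in HD rats and over 5.12 to 5.90 in water rats (0.06, SE 0.12), and its sign turned to -0.04 without HD replicate 5.

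None of the spindle motors passed. Kif4a, a chromokinesin that binds mitotic chromosomes, ranged over 4.36 to 5.38 in HD rats and over 4.89 to 5.38 in water rats, and 5 of 19 HD arrays lay under every water array (-0.15, SE 0.07, unadjusted p = 0.0318, q = 0.516). Kif15 ranged over 6.83 to 7.22 in HD rats and over 6.88 to 7.56 in water rats (-0.10, SE 0.05, unadjusted p = 0.0422, q = 0.568). Its recovery log2 fold change was 0.02 with an SE of 0.04, and water-recovery rats were lower than water rats by a value that did not pass (-0.10, SE 0.05, q = 0.882). Kif11, the bipolar motor that pushes spindle poles apart, was at -0.03 with an SE of 0.04 in HD against water rats and at -0.07 with an SE of 0.05 after recovery.

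Members differed in how much they varied among rats of a group. The SD within groups was 0.52 for Kif2b, 0.48 for Kif6, 0.48 for Kif2c, 0.43 for Kif5b and 0.33 for Kif2a, larger than that of 96.9%, 95.7%, 95.4%, 93.2% and 82.8% of all probe sets. The median SD was 0.16 over members and 0.21 over all probe sets, and 8 members had an SD above the median of all probe sets. The widest spreads thus included all 3 kinesin-13 members and Kif6. The lead of Kif2b rested on HD replicate 5: without that array its SD was 0.34, below 0.49 for Kif6, 0.47 for Kif2c and 0.37 for Kif5b, and that of Kif2a was 0.24.

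**Figure D4:**
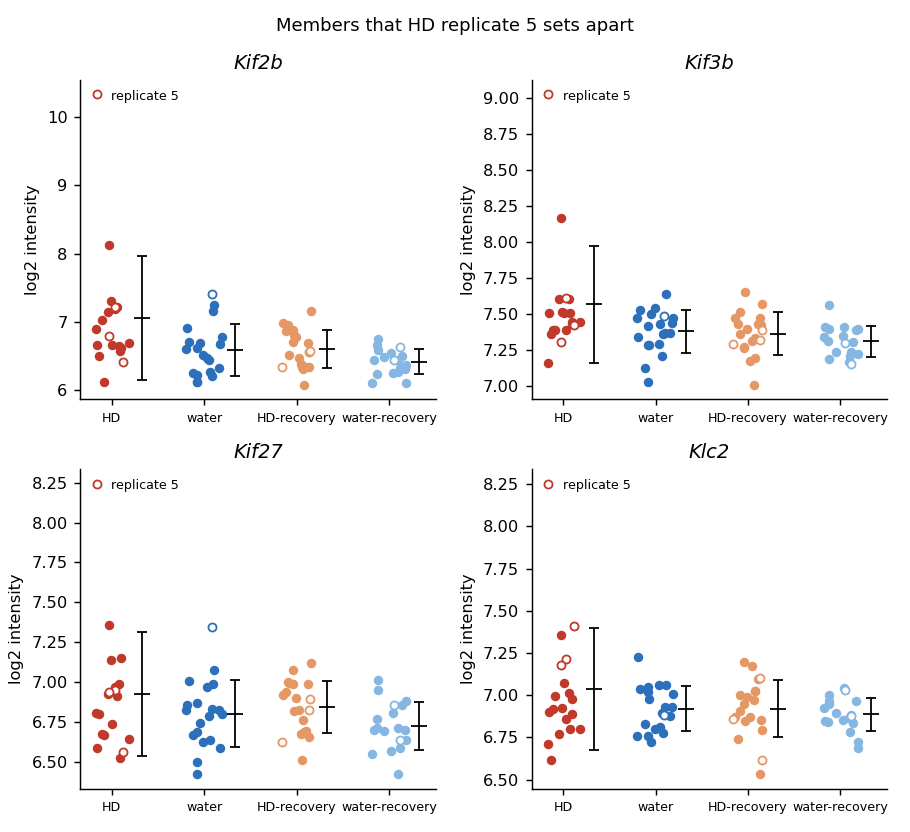
Log2 intensity of Kif2b, Kif3b, Kif27 and Klc2 in single arrays of the 4 groups, with means and SDs as bars and open points for arrays that stand apart. HD replicate 5 lies above every other array in each panel, at 10.34, 9.02, 8.24 and 8.25.

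In many members 1 array lay far from the others. HD replicate 5 lay above the 18 other HD arrays in 11 of 33 members and below them in 10, and over the 39 HD and water arrays it was the extreme one in 18 members, where no other array was extreme in more than 4. Over all probe sets this array had the lowest median correlation with its group, 0.83, and the lowest HD array median, 6.51. The share of all probe sets in which it was extreme was not counted, so these counts cannot be read as a trait of kinesins. Kif2b was at 10.34 on HD replicate 5, against 6.11 to 8.13 on the other HD arrays. Kif3b was at 9.02 against 7.16 to 8.17, Kif27 at 8.24 against 6.52 to 7.36 and Klc2 at 8.25 against 6.62 to 7.41. Kif6 was at 7.31 on this array, inside the range of the others.

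On HD replicate 5 the mean over the intraflagellar transport genes was 8.07 against 6.67 to 7.27 on the other HD arrays, and over the dynein and dynactin genes 7.96 against 6.83 to 7.40. Its leukocyte and sperm marker means, 7.48 and 12.06, lay inside the ranges of the others, 7.25 to 8.48 and 10.61 to 12.24, and its fibroblast mean of 6.60 lay below 6.81 to 7.31. Without it the log2 fold changes of the highest members shrank to 0.29 for Kif2b (limma, q = 0.244), 0.11 for Kif3b, 0.05 for Kif27 and 0.05 for Klc2, and that of Kif5b was -0.25. Kif6 kept its call without this array (-0.57, q = 0.0218).

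Leaving out the arrays that stand apart changed the calls of the family and of the whole array together. In HD against water rats 6 of 33 members then passed, Kif19 and Kif2b higher and Kif6, Kif5b, Kif16b and Klc1 lower, while 30.2% of all probe sets passed. Kif6 was at -0.65 (q = 0.00109), Kif5b at -0.40 (q = 0.00602) and Kif2b at 0.35 (q = 0.0248). The members' share was thus below that of the whole array under this setting.

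**Figure D5:**
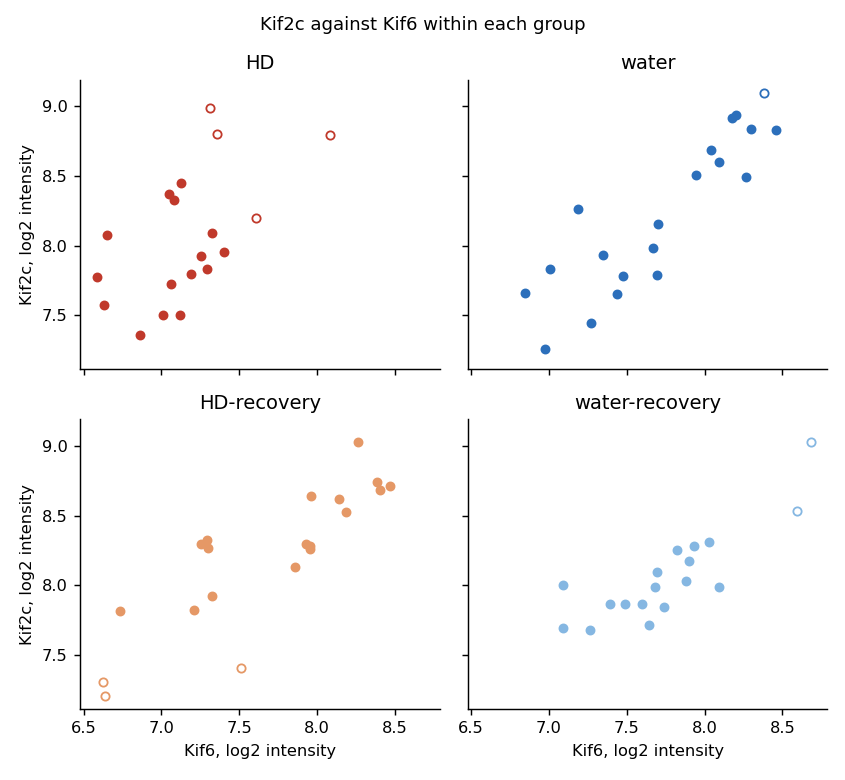
Log2 intensity of Kif2c against that of Kif6, each point an array, in 4 panels by labelled group, with open points for arrays that stand apart. The points rise together in each panel, with r of 0.55 in HD, 0.88 in water, 0.84 in HD-recovery and 0.84 in water-recovery rats.

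Which members varied with Kif6 was read within each group, with 32 members compared per group, away from the difference between groups. In water rats Kif2c was most like Kif6, with Pearson r = 0.88 and Spearman rho = 0.85 (permutation test, two-sided, 20 arrays, Benjamini-Hochberg adjusted p = 0.00032 for r and 0.00064 for rho, unadjusted 1e-05 and 2e-05). The first of these is the smallest that 100000 permutations can give. Without the 2 arrays farthest from the median of Kif6 r was 0.88, and it was 0.95 over replicate numbers 1 to 10 and 0.87 over 11 to 20. Among all probe sets 1.9% had a higher r with Kif6, and 46.0% had one beyond 0.5 in either direction, so a correlation of moderate size was common on these arrays.

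In the other groups r of Kif2c with Kif6 was 0.55 in HD rats (rho 0.58, permutation test, unadjusted p = 0.0138 for r, adjusted p = 0.0883 and 0.0661), 0.84 in HD-recovery rats (rho 0.85, adjusted p = 0.00064 and 0.00048) and 0.84 in water-recovery rats (rho 0.78, adjusted p = 0.00064 and 0.00832). Without the 2 farthest arrays r was 0.42, 0.75 and 0.66. In water-recovery rats those 2 arrays are replicates 12 and 15, which also stand apart, and without them the adjusted p was 0.0798, so the call there depended on them. Over replicate numbers 1 to 10, which hold neither array, r was 0.79, and over 11 to 20 it was 0.87. In HD rats it was 0.26 without the 4 arrays that stand apart. Kif2c had the highest r of the 32 members in 3 groups, and in HD rats Kif16b, an endosome motor named after its values were seen, was level with it (r = 0.56).

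Kif16b had r = 0.79 in water-recovery rats (rho 0.59, permutation test, unadjusted p = 0.00026 for r, adjusted p = 0.00416 and 0.0771), and 0.45 without the 2 farthest arrays. In HD-recovery rats its r was 0.75 (rho 0.84, unadjusted p = 8e-05 for r, adjusted p = 0.00128 and 0.00048), and 0.74 without the 2 farthest arrays. In water rats it was 0.49 (rho 0.48, adjusted p = 0.0771 and 0.0812).

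The next members in water rats were Kif27 (r = 0.72, rho = 0.74, permutation test, unadjusted p = 0.00023 for r, adjusted p = 0.00368 and 0.00656) and Kif2a (r = 0.67, rho = 0.56, unadjusted p = 0.00157 for r, adjusted p = 0.0125 and 0.0367). Without the 2 farthest arrays these r were 0.70 and 0.54. In water-recovery rats their r was -0.01 and 0.31 (adjusted p = 0.996 and 0.361). Kif23, a motor of cytokinesis, had a negative correlation with Kif6 in both control groups. Its r was -0.65 in water rats (rho -0.66, permutation test, unadjusted p = 0.00149, adjusted p = 0.0125) and -0.71 in water-recovery rats (rho -0.70, unadjusted p = 0.00104, adjusted p = 0.0111), and -0.56 and -0.53 without the 2 farthest arrays. An adjusted p under 0.05 was reached by 0 of 32 members in HD rats, 8 in water rats, 14 in HD-recovery rats and 6 in water-recovery rats. An r beyond 0.5 in either direction was held by 7, 11, 15 and 10 of the 32 members in these groups, in the same order, against 25.5%, 46.0%, 50.4% and 46.9% of all probe sets. Differences between groups in these correlations were not tested.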

How the data were processed

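RNA from cauda sperm of 77 rats was hybridized by the authors to Affymetrix Rat Gene 1.0 ST arrays, and the deposited log2 intensities, normalized by the authors, were used as given. The steps of that normalization are not given in the sources used, nor is a genome build, and the log2 scale was read from the values (2.515 to 14.63, none missing). The submitters' processing notes name limma. Groups followed the labels, and no 2 arrays held the same values (highest correlation within a group 0.984). Intensities carry no counting depth, so the number of arrays limits the precision.

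Probe sets were named from the platform annotation: 15310 had 1 symbol, 323 several and 13581 none. Members and lists were chosen with earlier results of these data known. All 29214 probe sets were fitted with limma 3.58.1 (R 4.3.3, lmFit and eBayes), each exposed group with its own control as in the study's methods, and all 4 groups in 1 fit for the interaction and the time contrasts. Storey q-values came from own code with a threshold of 0.05. The fit was also run on simulated data with independent noise for each probe set. Those data held no component shared over an array, so the run could not check how such a component affects the calls. Correlations were tested with 100000 permutations (scipy 1.17.1). Named members were those passing in any contrast, the 4 highest and 4 lowest in HD against water, the 3 smallest p in the recovery contrast and in the interaction, the 3 most like Kif6, and members with known roles in spermatids or cilia. Genes called only under an alternative setting, and Kif23 and Kif16b as correlates of Kif6, were named after their values were seen.

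Alternatives were Benjamini-Hochberg adjustment, median centring, quantile normalization, leaving out the 25% of probe sets with the lowest means, array weights, leaving out arrays that stand apart or each array in turn, a joint fit, the replicate number as a block or as 1 to 10 against 11 to 20, and the first principal component as a covariate. Each of these number ranges alone, the correlations over exposed rats and the spread without HD replicate 5 were added after seeing the data.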

Additional observations from a re-analysis of the deposited data

How the results depend on the processing

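In HD against water rats, 1 member passed. The count was 0 with array medians centred (Kif6 -0.57) and, over replicate numbers 1 to 10 alone and 11 to 20 alone, 0 and 0 (Kif6 -0.71 and -0.41). It was 5 with array weights and 6 without arrays that stand apart, where 17.7% and 30.2% of all probe sets passed. Leaving out 1 array at a time gave 0 to 1 members, with Kif6 at -0.62 to -0.53. After recovery the count was 0, and 3 without arrays that stand apart (13.1% of all). For the interaction it was 0, with 8 under array weights (33.7%) and 15 without those arrays (56.8%). For HD-recovery against HD it was 0, with 12 (45.2%) and 20 (57.4%), and for water-recovery against water 0 throughout. The cause was not tested. The count of members correlated with Kif6 in water-recovery rats was 6, with 0 without arrays that stand apart (Kif2c at 0.66) and 3 with medians centred.

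Of 150 values of the 14 other named members under alternatives, 138 kept call and sign, 6 changed sign with no call and 6 gained a call. With the replicate block the count stayed at 1 (Kif6 -0.57, q = 0.0471). Same-numbered HD and water arrays correlated at -0.58 to 0.65 in their deviations from the group means, with 8 of 19 over 0.1 and 2 of 19 best with their own number. For the recovery groups the range was -0.41 to 0.64, with 8 of 18 over 0.1 and 4 of 18 best with their own number. These values cannot settle whether numbers pair the rats, because 1 component carried 41.9% of the variance within groups. Other probe sets of a gene were not run because each member has 1. Probe sets were not compared with a background signal. By mean over all arrays 18 of the 33 members lay under the median of all probe sets, and 5 lay in the lowest 25%.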
